A study of Homo sapiens with 6 samples.

Results

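Chromatin accessibility was examined at 10 genes of the YAP and TEAD pathway, YAP1, WWTR1, TEAD1, TEAD4, LATS2, AMOTL2, AJUBA, ANKRD1, CCN1 and CCN2, among 20163 annotated protein-coding genes. A called peak belonged to a gene when it shared at least 1 bp with the gene body extended by 50 kb to each side, and the genes were taken by name as members of the pathway, with no threshold on a measured value. ATAC-seq, in which the Tn5 transposase cuts open chromatin, was run on 6 libraries from untreated cell lines, with 2 libraries for each line. HET-1A (libraries 1 and 2) is a non-cancerous, immortalised esophageal epithelial line kept in BEBM medium with its additives, and KYSE-30 (libraries 4 and 6) and KYSE-150 (libraries 7 and 8) are lines of esophageal squamous cell carcinoma (ESCC) kept in RPMI/F12 with serum, so line and culture medium cannot be told apart. Each line comes from a single origin, and the library numbers are those of the sample labels. The labels do not say whether the libraries of a line came from separate cultures. The comparison of interest was ESCC cells against HET-1A.

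The YAP and TEAD pathway is the output arm of Hippo signalling. The kinases LATS1 and LATS2 phosphorylate the coactivators YAP1 and WWTR1 (also named TAZ) and hold them in the cytoplasm, and when the kinases are inactive the coactivators enter the nucleus and bind the TEAD proteins, which recognise DNA. AMOTL2 is a junctional scaffold that binds YAP1, AJUBA is a LIM-domain protein that restrains LATS kinases, and ANKRD1, CCN1 (CYR61) and CCN2 (CTGF) are standard target genes. In squamous epithelium this pathway is known for its part in growth of the basal layer, and many TEAD-bound enhancers also carry AP-1 sites.

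The lists differed greatly in length, from 168 and 15979 peaks for HET-1A (libraries 1 and 2) to 1255 and 11671 for KYSE-30 (4 and 6) and 547 and 259 for KYSE-150 (7 and 8). Each peak has a fold enrichment, the ratio of the sequenced tags at its summit to the local background of the same library with 1 added to each, which can rank peaks within a library. The tags and the local background were recovered from the fold enrichment and the p-value of each peak. The smallest local background of a library, its genome background, was between 1.49 and 3.34 tags per 200 bp, and the relative background of a peak is its local background as a multiple of that value. Read totals are not used here, so the depth is known only through these values. Of 6 squamous markers, KRT6A and DSP had a promoter peak in HET-1A library 2, and none of the 6 had one in any other library. The promoters of KRT5, KRT14, TP63 and CDH1 held no peak in any of the libraries, and distal peaks were found at 6 of the 6 in HET-1A library 2 and at 2 of the 6 in each KYSE-30 library, where the share over all protein-coding genes was 60.6% for the former and 9.03% and 49.2% for KYSE-30 libraries 4 and 6. VIM, of 3 mesenchymal markers, had a promoter peak in KYSE-30 library 6 only, and COL1A1 and COL1A2 had none in any library. A distal peak was found at 1 of these 3 in HET-1A library 2 and at 1 in KYSE-30 library 6. Over all protein-coding genes, 35.4% had a promoter peak in HET-1A library 2 and 28.7% in KYSE-30 library 6. These few markers do not tell the lines apart by cell type. Lines were not tested against each other, since 2 libraries on each side hold the p-value of an exact permutation test (two-sided) at 0.33 or more. A weaker signal in every cell and a signal in fewer cells cannot be told apart in such data.

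Called peaks at the pathway genes came mostly from HET-1A library 2 and KYSE-30 library 6, which with 15979 and 11671 peaks also hold most of the peaks of the series. Of the 29879 peaks in the 6 lists, 50 lay in the windows of the 10 genes, with 29 from HET-1A library 2, 17 from KYSE-30 library 6 and 4 from KYSE-150 library 7. HET-1A library 1, KYSE-30 library 4 and KYSE-150 library 8 had 0. Every line thus has a library with no peak at any of the genes, and the lines overlap at 0 for each gene. As a share of the list, these peaks were 0.181% in HET-1A library 2 (Wilson 95% interval 0.126 to 0.261%), 0.146% in KYSE-30 library 6 (0.0910 to 0.233%) and 0.731% in KYSE-150 library 7 (0.285 to 1.86%). The windows together cover 0.0591% of the genome, a share that also counts positions far from genes. In HET-1A library 2 the median protein-coding gene had 0.881 peaks per 100 kb of window, and the pathway genes had 0 to 4.93. In KYSE-30 library 6 the median was 0.635, and the pathway genes had 0 to 2.497. YAP1 alone held 11 of the 29 peaks of HET-1A library 2. The 0 of 1255 peaks in KYSE-30 library 4 allows a share of up to 0.239%, the 0 of 259 in KYSE-150 library 8 up to 1.16%, and the 0 of 168 in HET-1A library 1 up to 1.79%, and each of these limits lies above the shares of HET-1A library 2 and KYSE-30 library 6. These intervals and limits cover counting error only.

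Among peaks near the genome background, the fewest tags at a called summit were 10 and 12 for the HET-1A libraries 1 and 2, 12 and 8 for the KYSE-30 libraries 4 and 6, and 13 for each KYSE-150 library. Relative to the genome background this was 5.31, 3.59, 5.07, 5.38, 4.64 and 4.93 times, in the order HET-1A libraries 1 and 2, KYSE-30 libraries 4 and 6, and KYSE-150 libraries 7 and 8. Where the local background is higher, a call needs more tags than these. The median fold enrichment at the pathway genes was 4.60 in HET-1A library 2 (range 2.84 to 7.36), 6.09 in KYSE-30 library 6 (3.75 to 9.43) and 4.10 in KYSE-150 library 7 (3.72 to 5.20), where all peaks of these libraries had a median of 4.22, 5.47 and 4.07.

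A promoter reached 3 kb to each side of any annotated start site of the gene. In HET-1A library 2, YAP1, WWTR1, TEAD1, LATS2, AMOTL2 and ANKRD1 had a promoter peak, 6 of 10 genes against 35.4% of all protein-coding genes. In KYSE-30 library 6, WWTR1, TEAD4 and CCN2 had one, 3 of 10 against 28.7%. No pathway gene had a promoter peak in HET-1A library 1 (0.0942% of all protein-coding genes), KYSE-30 library 4 (3.87%), KYSE-150 library 7 (1.79%) or KYSE-150 library 8 (0.362%), where so few promoters were called that 0 of 10 is close to the background. Of the 8 genes with a promoter peak in HET-1A library 2 or KYSE-30 library 6, 5 had it in the former only (YAP1, TEAD1, LATS2, AMOTL2 and ANKRD1), 2 in the latter only (TEAD4 and CCN2) and 1 in both (WWTR1). Over all 9226 protein-coding genes with a promoter peak in either library, 37.4% had it in HET-1A library 2 only and 22.7% in KYSE-30 library 6 only. AJUBA and CCN1 had no promoter peak in any library.

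Distal peaks, all other peaks of a window, were found at 7 of 10 genes in HET-1A library 2, against 60.6% of all protein-coding genes, and at 7 of 10 in KYSE-30 library 6, against 49.2%. KYSE-150 library 7 had distal peaks at YAP1, TEAD4, AMOTL2 and AJUBA, 4 of 10 genes, where 4.17% of all protein-coding genes had one. Each of these genes had 1 peak, which at TEAD4 and AJUBA lay at the promoter of another coding gene. With peaks at promoters of other genes left out, 2 genes remained, and with a window of 10 kb 0 did. In HET-1A library 1, KYSE-30 library 4 and KYSE-150 library 8, where none of the 10 genes had a distal peak, the share over all genes was 0.898%, 9.03% and 1.68%. The windows of the 10 genes are 103 to 370 kb long, and the median gene length is 50.7 kb against 27.2 kb over all protein-coding genes, although AMOTL2, AJUBA, ANKRD1, CCN1 and CCN2 are shorter than the latter. Longer windows can hold more peaks. The plot of fold enrichment by gene and library gives the highest value in each class.

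**Figure D1:**
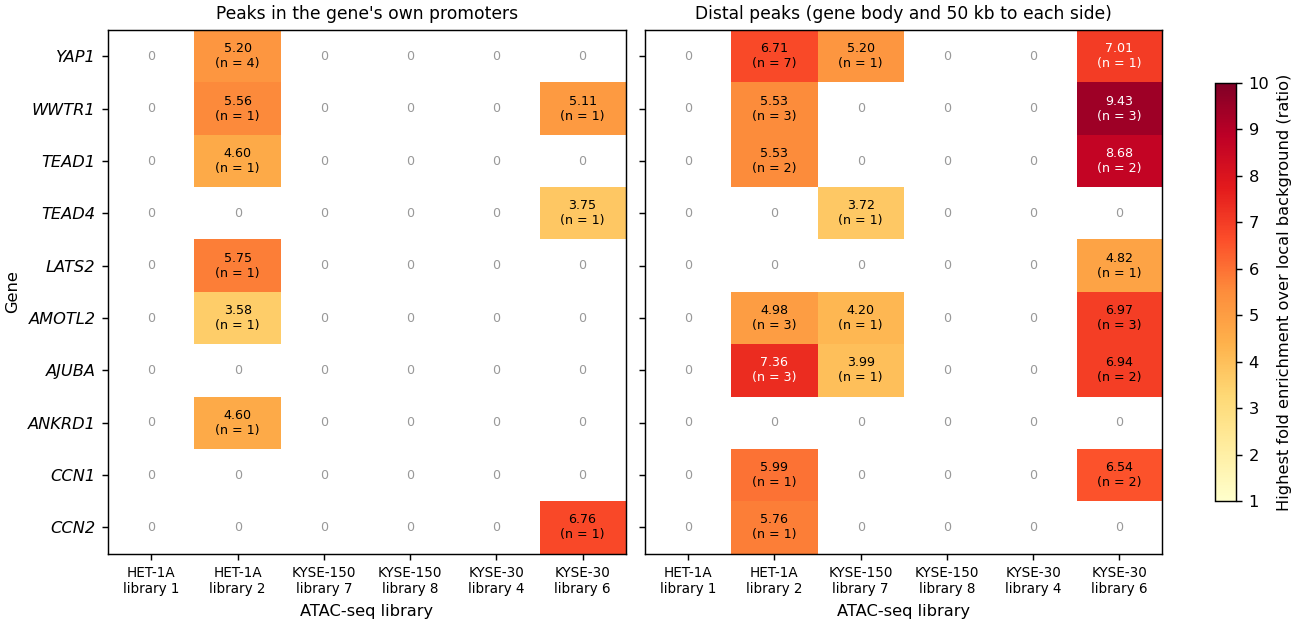
Highest fold enrichment over the local background (colour and number, a ratio) and number of called peaks (n) for each of the 10 genes (rows) in each of the 6 libraries (columns), with peaks in the gene's own promoters on the left and distal peaks of the window on the right. A grey 0 marks no called peak, and the columns of HET-1A library 1, KYSE-150 library 8 and KYSE-30 library 4 hold none.

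Merging the 50 peaks gave 39 regions, 11 of them in promoters of the pathway genes and 28 distal. Peaks of HET-1A alone made up 19 regions (48.7%, against 47.2% of all 23972 merged regions of the series), and peaks of KYSE-30 alone 8 (20.5% against 31.2%). Both of these lines shared 8 regions (20.5% against 18.6%), and 1 region was shared by all lines (2.56% against 0.859%). HET-1A and KYSE-150 shared 1 (2.56% against 0.392%), and 2 were found in KYSE-150 only (5.13% against 1.59%). Shares that rest on 1 or 2 regions are uncertain, and none was tested. YAP1 held 9 of the 19 regions with a peak in HET-1A alone. Over the other 9 genes there were 10 regions of HET-1A alone, 8 of KYSE-30 alone and 7 shared by both lines. Of the 28 distal regions, 9 lay within 3 kb of a start site of another gene, and for 7 of them that gene was protein-coding. Counted over peaks, 13 of 29 in HET-1A library 2 lay away from the promoters of all genes, against 7492 of 15979 in the whole library. In KYSE-30 library 6 it was 9 of 17, against 5243 of 11671. The map of peaks around the start sites shows their arrangement.

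**Figure D2:**
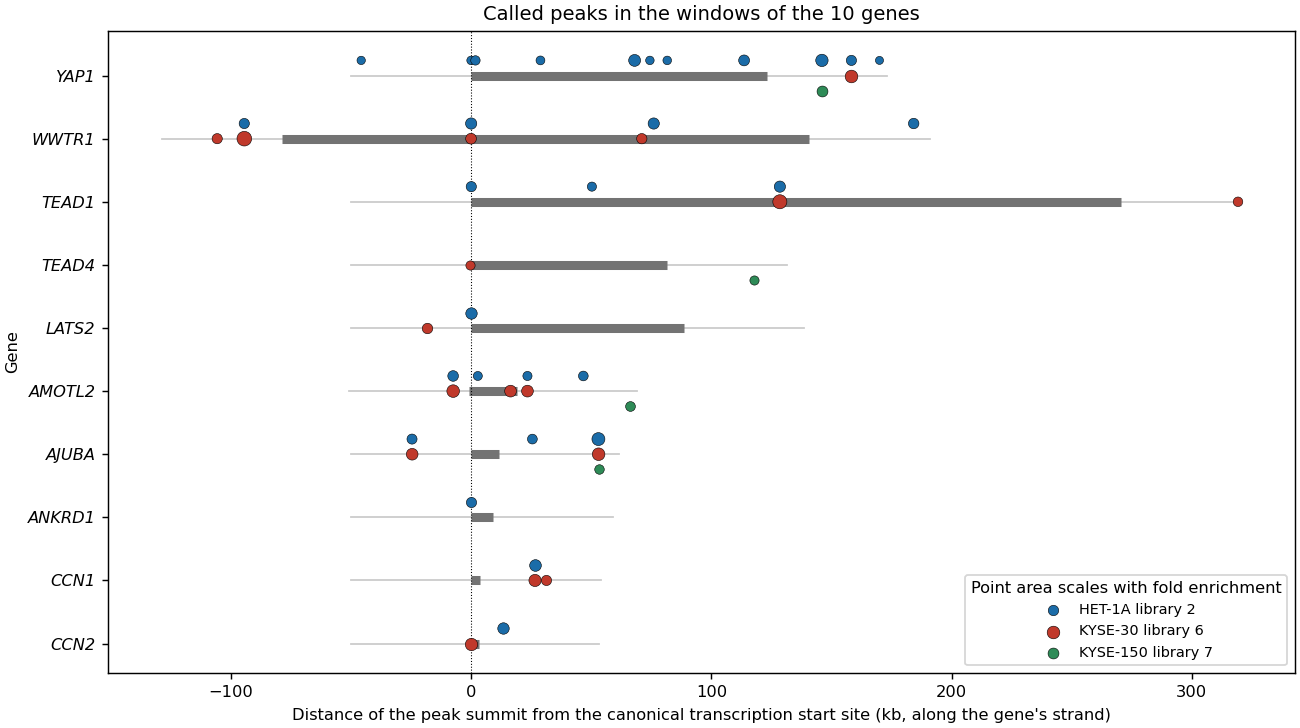
Positions of the called peaks of HET-1A library 2 (blue), KYSE-30 library 6 (red) and KYSE-150 library 7 (green) along the windows of the 10 genes, as the distance of the summit from the canonical start site in kb, with point area scaled to fold enrichment. Thick grey bars are gene bodies and thin lines the windows of 50 kb to each side, and the 11 HET-1A library 2 peaks of YAP1 are spread over its whole window.

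YAP1 (ENSG00000137693), the coactivator itself, lies at chr11:101981178-102104155 of hg19 on the forward strand. HET-1A library 2 had 11 peaks in its window, KYSE-30 library 6 had 1, KYSE-150 library 7 had 1, and the other 3 libraries had 0. In HET-1A library 2, 52 of the 20163 protein-coding genes (0.258%) had at least as many peaks in their window, and the median gene had 1. Per 100 kb of window, YAP1 had 4.93 peaks in this library, and 3.81% of the genes had at least that density, with a median of 0.881. At the canonical start site, HET-1A library 2 had a summit 92 bp upstream with a fold enrichment of 3.19 (38 tags over a local background of 11.2) and one 1.72 kb downstream with 3.87 (46 tags over 11.1). Both were ordinary in rank, since 49.96% and 19.9% of the peaks of that library had a p-value as small. Near alternative start sites inside the gene, peaks at 74.4 kb and 114 kb had a fold enrichment of 3.18 and 5.20. The stretch around the canonical start site also holds starts of non-coding transcripts. Distal HET-1A library 2 peaks at the promoter of CFAP300, 45.8 kb upstream, at 28.8 kb, at 81.6 kb and at 170 kb had a fold enrichment of 3.07, 3.43, 3.23 and 2.84. No other library had a called peak at a YAP1 promoter.

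The strongest YAP1 peaks lay in the gene and beyond its end. An intronic peak 68.0 kb after the start site had a fold enrichment of 6.22 (48 tags) in HET-1A library 2. The intergenic peak at 146 kb after the start site, past the end of the gene, had 77 tags and a fold enrichment of 6.71 in HET-1A library 2, and 0.488% of the peaks of that library had a p-value as small. KYSE-150 library 7 had a peak at the same place with 20 tags and a fold enrichment of 5.20, and 17.6% of its peaks had a p-value as small. The next region, at 158 kb, had a peak in HET-1A library 2 (57 tags, fold enrichment 4.57) and was the only YAP1 peak of KYSE-30 library 6 (21 tags, fold enrichment 7.01). The sequences of these 2 regions are shown because each was called in 2 lines, with the TEAD core GGAATG in capitals wherever it occurs on either strand. The AP-1 core TGANTCA is in capitals likewise. They span chr11:102127058-102127257, forward strand, and chr11:102139338-102139537, forward strand, of hg19.
YAP1 at 146 kb: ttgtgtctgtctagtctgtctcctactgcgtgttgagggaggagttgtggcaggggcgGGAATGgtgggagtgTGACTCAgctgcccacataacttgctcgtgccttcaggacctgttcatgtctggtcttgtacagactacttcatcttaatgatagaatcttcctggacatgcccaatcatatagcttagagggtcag
YAP1 at 158 kb: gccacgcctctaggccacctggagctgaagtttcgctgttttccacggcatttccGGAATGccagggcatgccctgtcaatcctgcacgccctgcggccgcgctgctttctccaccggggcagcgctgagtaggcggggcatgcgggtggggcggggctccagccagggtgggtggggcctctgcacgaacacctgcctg
The first holds 1 TEAD core and 1 AP-1 core, and the second 1 TEAD core and 0 AP-1 cores.

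The local background at YAP1 was raised in HET-1A library 2. Its 11 peaks had a relative background between 1.39 and 3.49 with a median of 2.54, and 84.2% of all peaks of that library had a lower value than this median. The YAP1 peak of KYSE-30 library 6 had a relative background of 1.44 and that of KYSE-150 library 7 of 1.09. The raised values went past the window of the gene. From 3 Mb before to 1 Mb after the YAP1 start site, HET-1A library 2 had 61 peaks, 15.3 per Mb against 5.16 per Mb over the genome, with a median relative background of 1.96 against 1.45 for the whole library. In successive 1-Mb windows up to and including the one that begins at the start site, the median was 1.298, 1.72, 2.07 and 2.34. KYSE-30 library 6 had 10 peaks in the same 4 Mb, 2.5 per Mb against 3.77 per Mb over the genome, with a median of 1.00. HET-1A library 1 had 1 peak there, with a relative background of 1.91. A raised local background lowers the fold enrichment that a given number of tags yields. The density of peaks moved with it, and its part in the YAP1 values was not tested. The stretch around YAP1 was chosen after its values were seen, and the plot of relative background by distance shows it.

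**Figure D3:**
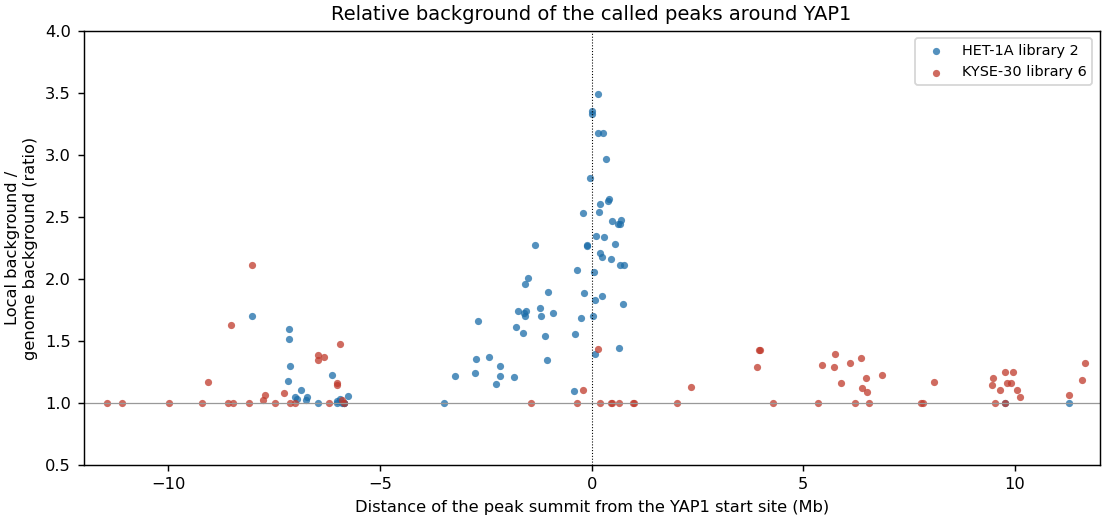
Relative background of each called peak (local over genome background, a ratio) against the distance of its summit from the YAP1 start site in Mb, for HET-1A library 2 (blue) and KYSE-30 library 6 (red). The blue points reach 3.49 near YAP1 and leave a gap of 9.01 Mb that begins 0.759 Mb after its start site, while the red points within 3 Mb before and 1 Mb after it stay at or below 1.44.

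WWTR1 (ENSG00000018408), the coactivator also known as TAZ, lies at chr3:149235022-149454501 on the reverse strand and had 4 peaks each in HET-1A library 2 and KYSE-30 library 6, and 0 in the other 4 libraries. It was the only pathway gene with a promoter peak in both lines. The summits lay 59 bp and 102 bp upstream of the canonical start site, with a fold enrichment of 5.56 in HET-1A library 2 (24 tags) and 5.11 in KYSE-30 library 6 (18 tags). Each line also had a peak of its own in an intron, at 76.0 kb after the start site in HET-1A library 2 (fold enrichment 5.53) and at 71.0 kb in KYSE-30 library 6 (4.69). The highest fold enrichment of any peak at the 10 genes was 94.5 kb upstream of the canonical start site of WWTR1, which lies inside the annotated gene. At that peak KYSE-30 library 6 had 9.43 (29 tags) and HET-1A library 2 had 4.60 (19 tags). This region is the promoter of COMMD2, a neighbouring gene. The remaining peaks were at the promoter of TM4SF4 in HET-1A library 2 (4.83) and within ANKUB1 in KYSE-30 library 6 (4.58).

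Among the DNA-binding partners, TEAD1 had peaks in both lines but TEAD4 had none in HET-1A. TEAD1 (ENSG00000187079, chr11:12695968-12966284, forward strand) had 3 peaks in HET-1A library 2 and 2 in KYSE-30 library 6. Its promoter peak was called in HET-1A library 2 only, with the summit 2 bp from the start site and a fold enrichment of 4.60 (19 tags). An intronic region 128 kb after the start site was called in both, with a fold enrichment of 5.53 in HET-1A library 2 (23 tags) and 8.68 in KYSE-30 library 6 (24 tags). TEAD4 (ENSG00000197905, chr12:3068496-3149842, forward strand) had 1 peak in KYSE-30 library 6, with its summit 639 bp upstream of the canonical start site, a fold enrichment of 3.75 and 17 tags. This was a weak peak, since 86.4% of the peaks of that library had a p-value as small. The other TEAD1 peaks were weaker, at 50.2 kb in HET-1A library 2 (3.68) and at 319 kb in KYSE-30 library 6 (4.02). The only other TEAD4 peak, in KYSE-150 library 7, lay 118 kb after the canonical start site at the promoter of TSPAN9 (fold enrichment 3.72). The TEAD1 intronic region is shown because its KYSE-30 library 6 peak had the highest fold enrichment of the distal peaks inside a pathway gene. The TEAD4 promoter is shown as the only TEAD promoter called in ESCC cells. They lie at chr11:12824328-12824527, forward strand, and chr12:3067824-3068023, forward strand.
TEAD1 intron at 128 kb: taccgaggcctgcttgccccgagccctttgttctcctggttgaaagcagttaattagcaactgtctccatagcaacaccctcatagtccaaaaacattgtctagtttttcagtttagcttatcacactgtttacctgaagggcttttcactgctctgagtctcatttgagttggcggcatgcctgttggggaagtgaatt
TEAD4 promoter: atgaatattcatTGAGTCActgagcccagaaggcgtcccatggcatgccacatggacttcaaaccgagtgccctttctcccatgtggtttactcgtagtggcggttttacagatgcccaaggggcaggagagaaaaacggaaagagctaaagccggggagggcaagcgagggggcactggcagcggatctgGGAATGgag
The TEAD1 region holds 0 copies of either core, and the TEAD4 promoter holds 1 TEAD core and 1 AP-1 core.

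LATS2 (ENSG00000150457, chr13:21547175-21635725, reverse strand), the kinase that inactivates both coactivators, had a promoter peak in HET-1A library 2 with a fold enrichment of 5.75 (29 tags, summit 56 bp upstream). KYSE-30 library 6 had no peak there and had instead an intergenic peak 18.3 kb upstream with 4.82 (11 tags). The scaffold AMOTL2 (ENSG00000114019, chr3:134074189-134094321, reverse strand) had 4 peaks from HET-1A library 2, 3 from KYSE-30 library 6 and 1 from KYSE-150 library 7, which together made up 6 regions. A region 7.54 kb upstream of its canonical start site was called in both HET-1A library 2 (fold enrichment 4.98, 21 tags) and KYSE-30 library 6 (6.97, 22 tags). Another at 23.4 kb, past the end of the gene and near the start of the pseudogene RPL39P5, had 3.69 (22 tags) and 6.09 (27 tags) in the same order. A further one, in the gene at 16.3 kb, was called in KYSE-30 library 6 only (6.10, 24 tags), and one at 46.6 kb in HET-1A library 2 only (4.14). The promoter peak of HET-1A library 2 lay 2.72 kb inside the gene and was weaker, at 3.58, and KYSE-150 library 7 had its only peak 66.2 kb after the start site (4.20). At AMOTL2 the number of peaks per 100 kb was 3.33 in HET-1A library 2 and 2.497 in KYSE-30 library 6, and 11.8% and 6.29% of all protein-coding genes had at least that density. Both shared AMOTL2 regions are shown, at chr3:134100733-134100932, reverse strand, and chr3:134069809-134070008, reverse strand.
AMOTL2 at 7.54 kb upstream: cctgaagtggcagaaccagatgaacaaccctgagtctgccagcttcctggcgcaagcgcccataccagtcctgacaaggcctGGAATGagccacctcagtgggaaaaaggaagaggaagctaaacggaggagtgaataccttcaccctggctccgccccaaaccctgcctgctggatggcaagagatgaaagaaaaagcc
AMOTL2 at 23.4 kb: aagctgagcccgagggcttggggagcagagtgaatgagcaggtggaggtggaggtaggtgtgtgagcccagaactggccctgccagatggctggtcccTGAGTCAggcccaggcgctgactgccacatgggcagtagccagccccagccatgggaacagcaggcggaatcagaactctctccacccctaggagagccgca
The upstream region holds 1 TEAD core and 0 AP-1 cores, and the region beyond the gene 0 TEAD cores and 1 AP-1 core.

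AJUBA (ENSG00000129474, chr14:23440386-23451760, reverse strand), which restrains LATS kinases, had 3 peaks from HET-1A library 2, 2 from KYSE-30 library 6 and 1 from KYSE-150 library 7. None of them lay in the gene or its promoter. The region called in the most libraries of all 39 was in its window, 52.9 kb after its start site, with a fold enrichment of 7.36 in HET-1A library 2 (43 tags), 6.94 in KYSE-30 library 6 (19 tags) and 3.99 in KYSE-150 library 7 (18 tags). It is the promoter of PRMT5, an arginine methyltransferase, shared with the divergent transcript PRMT5-DT. The other peaks were at the promoters of C14orf93, called in both lines (4.45 and 6.0), and of HAUS4, called in HET-1A library 2 only (4.21). All 3 regions of the AJUBA window were thus promoters of neighbouring genes.

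The 3 target genes differed from one another. CCN2 (ENSG00000118523, chr6:132269316-132272512, reverse strand), which encodes a secreted matrix protein, had a promoter peak in KYSE-30 library 6 with the summit 98 bp upstream, a fold enrichment of 6.76 and 19 tags. A start site of the non-coding LINC01013 lies within the same 3 kb. HET-1A library 2 had no called peak at this promoter but had one 13.1 kb after the start site, in LINC01013, with 5.76 (24 tags). For ANKRD1 (ENSG00000148677, chr10:92671853-92680844, reverse strand), an ankyrin repeat protein of the nucleus, the reverse held. HET-1A library 2 had a promoter peak 249 bp upstream with 4.60 (19 tags), and it was the only peak of the ANKRD1 window in any library. CCN1 (ENSG00000142871, chr1:86046444-86050272, forward strand), a matrix protein of the same family as CCN2, had no promoter peak. It had an intergenic region about 26.5 kb after its start site in both HET-1A library 2 (5.99, 25 tags) and KYSE-30 library 6 (6.54, 30 tags), and a second one at 31.3 kb in KYSE-30 library 6 only (4.60, 21 tags).

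The 250 bases upstream of the canonical start sites of the pathway genes were searched for the TEAD core. TEAD cores were found upstream of 7 of the 10 pathway genes, namely YAP1, TEAD1, TEAD4, AMOTL2, ANKRD1, CCN1 and CCN2, where 9.82% of 19881 start sites of protein-coding genes had one. CCN2 had 3 cores, between positions -169 and -95 from the start site, and 9 of the 19881 start sites (0.0453%) had at least 3. The genes were chosen by name, with ANKRD1, CCN1 and CCN2 among them as standard targets of the pathway. These shares therefore describe the choice of genes and say nothing about accessibility in the libraries. The stretches of CCN2 and ANKRD1 are shown because each carried a promoter peak in 1 line only, together with the CCN1 region called in both. They lie at chr6:132272513-132272762, reverse strand, chr10:92680845-92681094, reverse strand, and chr1:86072879-86073078, forward strand.
CCN2 upstream: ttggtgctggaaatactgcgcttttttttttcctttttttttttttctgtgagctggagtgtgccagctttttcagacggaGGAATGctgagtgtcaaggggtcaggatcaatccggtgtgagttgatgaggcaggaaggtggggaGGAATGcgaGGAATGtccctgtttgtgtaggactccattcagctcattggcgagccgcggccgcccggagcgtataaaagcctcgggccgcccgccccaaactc
ANKRD1 upstream: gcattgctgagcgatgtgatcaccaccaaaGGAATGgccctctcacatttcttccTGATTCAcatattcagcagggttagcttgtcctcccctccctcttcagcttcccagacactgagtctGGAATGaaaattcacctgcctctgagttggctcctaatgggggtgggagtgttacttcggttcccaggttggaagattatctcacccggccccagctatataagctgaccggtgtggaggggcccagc
CCN1 at 26.5 kb: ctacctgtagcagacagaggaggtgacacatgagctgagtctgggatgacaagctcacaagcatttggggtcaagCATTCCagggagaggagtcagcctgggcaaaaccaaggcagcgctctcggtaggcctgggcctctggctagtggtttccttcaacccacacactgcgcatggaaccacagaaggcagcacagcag
ANKRD1 has 2 TEAD cores and 1 AP-1 core in this stretch. The CCN1 stretch is centred on the summit of KYSE-30 library 6 and has 1 TEAD core and 0 AP-1 cores. Around the HET-1A library 2 summit of the same region, 200 bp held 1 TEAD core and 1 AP-1 core. The whole KYSE-30 library 6 peak held 2 TEAD cores and 1 AP-1 core. A match of these letters is a description of the sequence and not evidence of binding, and the 2 cores can share letters where they adjoin.

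Within 200 bp around the summit, the TEAD core was present in 9 of 29 peaks at the pathway genes in HET-1A library 2 (31.0%), where 12.8% of all peaks of the library held it. In KYSE-30 library 6 it was present in 7 of 17 (41.2%), against 15.9% of all peaks. The AP-1 core was in 11 of 29 (37.9%) against 25.8% in HET-1A library 2, and in 4 of 17 (23.5%) against 31.4% in KYSE-30 library 6. Taken over peaks away from the promoters of all genes, the TEAD core was in 4 of 13 in HET-1A library 2 and 5 of 9 in KYSE-30 library 6, against 16.1% and 22.1%, while the AP-1 core was in 6 of 13 and 1 of 9, against 38.3% and 51.1%. KYSE-150 library 7 had both cores in 1 of its 4 peaks, the one beyond YAP1. Peaks of a gene share their locus and some regions enter from 2 libraries, so these counts were not tested.

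Where HET-1A library 2 and KYSE-30 library 6 both had a peak, their fold enrichment could be set side by side. The windows of the pathway genes held 9 such regions among 4543 in the genome. The fold enrichment was higher in KYSE-30 library 6 in 7 of the 9, and in 73.2% of all 4543, and the median ratio of KYSE-30 library 6 to HET-1A library 2 was 1.4 at the pathway genes and 1.20 over the genome. A ratio above 1 is therefore usual for these libraries, which differ in genome background. The ratio was 2.05 at the COMMD2 promoter upstream of WWTR1, and 96.4% of all shared regions had a lower ratio. It was 1.65 at AMOTL2 23.4 kb, 1.57 in the TEAD1 intron and 1.53 at YAP1 158 kb, with 85.6%, 81.4% and 79.3% of shared regions lower. The promoter of WWTR1 had a ratio of 0.919 and the PRMT5 promoter 0.944, with 18.5% and 21.0% lower. With 1 library for each line at these regions, the differences have no replicate check.

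**Figure D4:**
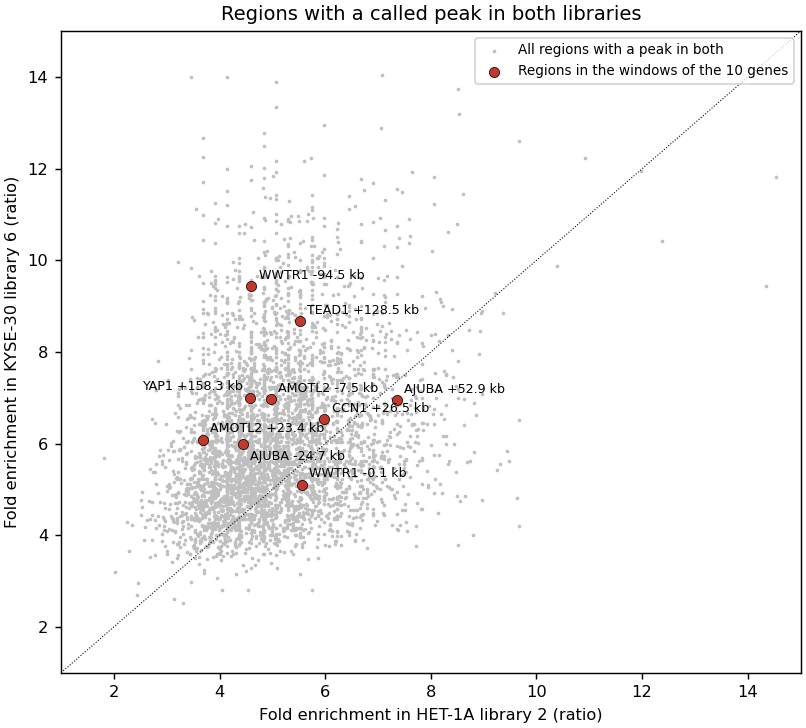
Fold enrichment in KYSE-30 library 6 against HET-1A library 2 (ratios over the local background) at the 4543 regions with a peak in both (grey) and at the 9 of them in the windows of the pathway genes (red, labelled by gene and distance from its start site). The dotted line marks equal values, 7 red points lie above it, and 5 grey regions lie beyond the axes at 15.

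Other genes of the pathway were counted from lists of upstream regulators and partners (16 genes) and of further target genes (17 genes). Among the regulators and partners, 10 had a promoter peak in HET-1A library 2 and 8 in KYSE-30 library 6 (35.4% and 28.7% of all protein-coding genes), and none had one in the other 4 libraries. The kinases STK3 and LATS1, the kinase adaptor MOB1A, the tumour suppressor NF2, the scaffold WWC1 and the TEAD cofactor VGLL4 had promoter peaks in both lines, with a highest fold enrichment of 5.06 and 7.07 at STK3, 4.60 and 5.97 at LATS1, 7.06 and 4.79 at MOB1A, 5.02 and 4.46 at NF2, 4.92 and 5.63 at WWC1, and 5.31 and 5.52 at VGLL4, in the order HET-1A library 2 and KYSE-30 library 6. TEAD2 had one in HET-1A library 2 only (6.75) and TEAD3 had none, and both were named after their values were seen. Among the further target genes, 5 had a promoter peak in each of these libraries, of which GADD45A and PTPN14 were common to the lines. GADD45A, a stress response gene, was the only gene of either list with a promoter peak in a library other than these, at 4.59 in KYSE-30 library 4, beside 7.91 for library 6 of that line and 4.14 for HET-1A library 2. In HET-1A library 2 only, the receptor tyrosine kinase AXL (4.90), F3, the initiator of clotting (4.42), and the transcription factor FOXF2 (3.04) had one. In KYSE-30 library 6 only, ASAP1 (4.76), ARHGEF17 (3.77) and the growth factor TGFB2 (4.31) had one. Among the regulators and partners, SAV1, TAOK1 and FRMD6 also had one in HET-1A library 2 only, and STK4 and MOB1B in KYSE-30 library 6 only. Of all protein-coding genes with a promoter peak in either library, 37.4% had it in HET-1A library 2 only and 22.7% in KYSE-30 library 6 only. These genes were likewise named after their values were seen.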

How the data were processed

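ATAC-seq peak lists of 6 libraries were analysed. The authors trimmed reads, marked duplicates with Picard 2.2.1, mapped to hg19 with Bowtie2 2.3.3.1, removed blacklisted regions, corrected for the Tn5 offset and used fragments under 100 bp. Peaks were called library by library by the authors with MACS2 2.1.0.20160309 (q-value 0.05, extension to 200 bp) without pooling replicates. The deposited lists give a score (10 times −log10 of the q-value), a fold enrichment as a ratio over the local background, and −log10 p-values and q-values.

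Tags and local background were recovered where 1 whole number of tags returned the −log10 p within 0.001, which held for 99.6 to 100% of peaks. A trial on simulated peaks used the same formulas, so it bears on the calculation and not on whether the formulas hold for the deposited peaks. Genes came from GENCODE 44 on hg19 (CYR61 and CTGF are listed as CCN1 and CCN2), and chromosome names and lengths matched. Peaks sharing 1 bp were merged, and sequences were read from the hg19 genome. Shares above 0 have Wilson intervals, and for a count of 0 the upper limit given is 3 divided by the number of peaks in the list. All 10 genes are named, with each promoter peak, the distal peak of highest fold enrichment and the distal regions called in at least 2 libraries. No test was run. The genes and lists were chosen with earlier results of these data known. Alternatives changed the q-value, promoter, window, overlap, number of peaks and libraries. Scripts ran in Python 3.11.15 with pysam 0.24.0, scipy 1.17.1, pandas 2.3.3, numpy 2.4.6 and matplotlib 3.10.9.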

Additional observations from a re-analysis of the deposited data

How the results depend on the processing

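Of 174 recomputed values, 144 moved by at most 1.5 times and 30 moved by more or to or from 0. Changes of direction were not assessed. Many of the 144 could hardly move, being counts of 0 that stayed at 0 or a mean over a single peak, so their number is no measure of stability. No paired analysis was made, since the labels do not say whether libraries of different lines were prepared together. A q-value under 0.01 or 0.001, a promoter of 1 kb, summits only, coding transcripts only, merging at 50% of the shorter peak and, chosen after seeing the data, motif searches over whole peaks changed no count by more than 1.5 times. With the 168 strongest peaks of each library, promoter peaks fell to 0 genes in HET-1A library 2 and KYSE-30 library 6, distal peaks to 1 gene each for HET-1A library 2 and KYSE-150 library 7 and 0 for KYSE-30 library 6, window peaks to 1, 1 and 0 in the same order, and regions to 0 for each line alone and 1 shared. A window of 10 kb left 18 peaks for HET-1A library 2, 8 for KYSE-30 library 6 (distal peaks at 3 genes) and 0 in KYSE-150 library 7 (0 genes). A window of 100 kb gave KYSE-30 library 4 its only 2 peaks, at 2 genes. Without peaks in promoters of other genes, KYSE-150 library 7 had distal peaks at 2 genes.

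Requiring a peak in both libraries of a line left 0 regions in each class. Leaving out 1 library in turn, regions of HET-1A alone ranged from 0 to 27, of KYSE-30 alone from 0 to 16, of KYSE-150 alone from 0 to 3, and shared regions from 1 to 10. HET-1A library 2 and KYSE-30 library 6 decide these counts: without the former, regions of HET-1A alone fell from 19 to 0 and those of KYSE-30 alone rose from 8 to 16, with 1 shared, and without the latter those of KYSE-30 alone fell to 0, with 2 shared. Without KYSE-150 library 7, those of KYSE-150 alone fell to 0. The lengths of the lists, 168 to 15979 peaks, limit what a count of 0 can show.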

Other observations

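Past YAP1 on chromosome 11, HET-1A library 2 had no called peak from 102740476 to 111749765 of hg19, a stretch of 9.01 Mb that holds 45 protein-coding genes and begins 0.759 Mb after the YAP1 start site, directly beyond the part with raised background. KYSE-30 library 6 had 29 peaks in the same stretch, KYSE-30 library 4 and KYSE-150 library 7 had 1 each, and HET-1A library 1 and KYSE-150 library 8 had 0. By the number of protein-coding genes it holds, this stretch ranked 7, tied with another, among the stretches between neighbouring peaks of HET-1A library 2. It was found after the values were seen, and nothing was tested.

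The targets and partners outside the 10 genes also held distal peaks. In HET-1A library 2, 14 of the 17 further target genes had a distal peak in their window, and in KYSE-30 library 6, 12 had one. Of the 16 regulators and partners, 12 and 10 had one in the same order, where 60.6% and 49.2% of all protein-coding genes did. KYSE-150 library 7 had distal peaks at 2 of the 17 targets and 0 of the 16 regulators and partners, against 4.17%. KYSE-30 library 4, which had no peak at the 10 genes, had distal peaks at 5 of these 17 target genes and at 4 of the 16 regulators and partners, where 9.03% of all protein-coding genes had one.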
